A study of Mus musculus with 72 samples.

Results

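Liver DNA of 5 tm1a knockout lines was compared with liver DNA of wild-type mice by sequencing bisulfite-treated amplicons. The liver libraries were taken by the tissue code in their titles, and made up 15 of the 72 libraries of the series. They comprised 5 knockout libraries of the promoter CpG island, 5 wild-type libraries of the same islands, and 5 libraries of the LacZ reporter from the same knockout DNA as the island library. All mice were C57BL/6N and 7 weeks old. Each knockout carried, in the homozygous state as labelled, a Knockout Mouse Project allele with a neo selection cassette and a LacZ reporter under the control of the targeted gene's own promoter. The wild-type mice carried no reporter, so LacZ has no wild-type counterpart.

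There was 1 library per line, genotype and amplicon, and lines served as the replicates in liver. The labels do not say whether DNA of several animals was pooled, nor whether a wild-type animal served more than 1 line. The liver label could not be checked against marker genes, since no expression was measured and the amplicons cover only the targeted promoters and the reporter.

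The targeted genes were Arap (the accession in its labels is that of Arap1, which stimulates GTP hydrolysis by small GTPases), Dstn (destrin, which severs and depolymerizes actin filaments), Lyplal1 (a lysophospholipase-like serine hydrolase), Ninj1 (ninjurin 1, a cell-surface adhesion protein that also acts in plasma membrane rupture) and Rab32 (a small GTPase of vesicle traffic to lysosome-related organelles). CpG islands are stretches rich in CpG dinucleotides that surround the start sites of many mammalian genes. They are usually unmethylated in normal tissue, and dense methylation of an island accompanies stable silencing of its gene. Inserted reporter sequences such as bacterial LacZ are rich in CpG and are known to become methylated and silenced in mice. Bisulfite converts unmethylated cytosine to uracil, which is read as thymine, whereas methylated cytosine stays cytosine, so the share of cytosine calls at a CpG is its methylation level.

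The measured islands lay on chromosome 7 (Arap, 108496480 to 108496701), chromosome 2 (Dstn, 143740490 to 143741399), chromosome 1 (Lyplal1, 187940948 to 187941221), chromosome 13 (Ninj1, 49282892 to 49283487) and chromosome 10 (Rab32, 10277589 to 10277983) of the mm9 build, counting sites with at least 100 reads in both liver libraries. Arap had 31 such sites, Dstn 78, Lyplal1 28, Ninj1 54 and Rab32 40. The spacing of the sites was matched to RefSeq promoter sequences of the GRCm38.p6 build, each of which holds 250 bases before and 50 after an annotated start site. All CpG dinucleotides within the measured part of that window were found, 21 of 21 for Arap1, 31 of 31 for Dstn, 12 of 12 for Lyplal1, 7 of 7 for Ninj1 and 5 of 5 for Rab32. A complete match of at least 5 CpGs was the rule for accepting a placement, and Rab32 had just that number. Distances below are from that start, negative upstream, and hold to within 1 base. The Arap amplicon ran from -102 to 119 bp, with 12 sites upstream and 19 downstream. The Dstn amplicon ran from -576 to 333 bp and held 51 upstream sites. The amplicons of Lyplal1 (-34 to 239 bp), Ninj1 (-5 to 590 bp) and Rab32 (20 to 414 bp) lay almost wholly downstream of the start, in the first part of the gene.

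Upstream stretches of Arap1, Dstn and Lyplal1 were as follows, with each measured CpG in capitals and the last base directly before the start site. Most Arap and Lyplal1 sites described below lie downstream of the start and are not in these stretches. The measured Arap CpG at -1 bp straddles the start and is printed in lower case, since its second base lies outside the stretch. They show how densely the Arap and Dstn amplicons were sampled, and the pair of Lyplal1 sites that were methylated in both genotypes.
Arap1 upstream: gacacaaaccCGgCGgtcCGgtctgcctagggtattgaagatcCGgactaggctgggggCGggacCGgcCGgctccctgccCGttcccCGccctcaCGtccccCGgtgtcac
Dstn upstream: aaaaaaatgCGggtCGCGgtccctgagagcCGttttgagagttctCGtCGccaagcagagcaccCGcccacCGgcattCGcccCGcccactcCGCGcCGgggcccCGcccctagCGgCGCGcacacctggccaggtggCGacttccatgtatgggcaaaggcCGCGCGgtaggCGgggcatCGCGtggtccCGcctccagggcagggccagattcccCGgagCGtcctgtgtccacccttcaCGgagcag
Lyplal1 upstream: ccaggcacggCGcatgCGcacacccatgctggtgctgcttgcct

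The 10 island libraries held 93004 to 7665657 CpG calls, with a median coverage per site of 2474 (the Lyplal1 knockout) to 238872 reads, and the 5 LacZ libraries held 564212 to 3339962 calls. At this depth a level pooled over a library had a 95% Wilson interval with half-widths of at most 0.193 points (islands) and 0.127 points (LacZ). Reads of amplified DNA are not independent molecules, so intervals cover counting error only. Levels are mean percentages over the sites of an amplicon with at least 10 reads in both libraries of a pair, and differences are percentage points, knockout minus wild type.

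The liver islands were methylated at low mean levels in both genotypes, and Lyplal1 was the line in which the knockout stood clearly apart. The Lyplal1 island averaged 11.8% in the knockout and 7.13% in wild type, a difference of 4.68 points. The Ninj1 island averaged 10.6% and 9.95%, the Dstn island 4.12% and 3.89%, the Arap island 2.24% and 3.08%, and the Rab32 island 1.90% and 2.15%. The knockout was thus higher in 3 of 5 lines and lower in Arap (-0.84 points) and Rab32 (-0.26 points), and the knockout and wild-type values overlapped across lines.

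Over the 5 lines the knockout averaged 6.14% ± 4.73 (SD, n = 5) and wild type 5.24% ± 3.23. The paired difference was 0.897 ± 2.19 points, and flipping the signs of the line differences in all ways (an exact, two-sided permutation test) gave p = 0.625. The lowest p that 5 lines allow is 0.0625. Without Lyplal1 the mean difference was -0.0476 points, and without Arap it was 1.33 points. The Ninj1 difference rested on positions with few reads: at sites with at least 100 reads in both libraries it was 0.0317 points. The Rab32 difference rested on a handful of sites above 5%: without them it was 0.203 points.

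**Figure D1:**
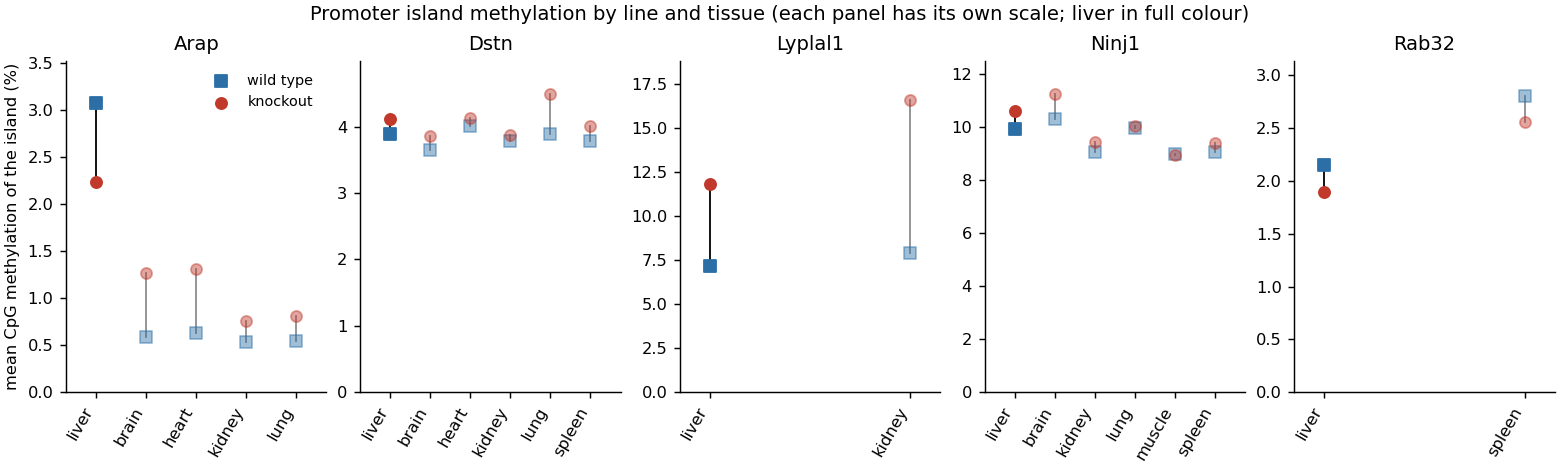
Mean CpG methylation of the promoter island (percent, y axis) in wild type (squares) and knockout (circles) for each tissue of the 5 lines, with liver in full colour and 1 library per point. The y axes differ between panels. In liver the Lyplal1 knockout at 11.8% lies above its wild type at 7.13%, and both Arap liver libraries lie above every other Arap library.

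Most single CpG sites were close to unmethylated in both genotypes, and differences of at least 5 points were found at few sites outside Lyplal1. Among the 243 sites with at least 10 reads in both liver libraries, 19 (7.82%) were higher in the knockout by at least 5 points and 7 (2.88%) were lower. Requiring 100 reads left 14 higher (6.06%) and 6 lower (2.60%) among 231 sites. A difference of at least 1 point was found at 39 of these sites in the upward (16.9%) and at 22 in the downward direction (9.52%). Of those 14, Lyplal1 supplied 10, which was 35.7% of its 28 sites, against 0.00% lower, whereas Arap supplied none, with 0.00% of its 31 sites past 5 points in either direction. At the size of 1 point, Arap had 11 of its 31 sites lower and 1 higher. With 1 liver library per genotype these counts have no test.

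Sites were split by their mean over the 2 liver libraries. Of the 231 sites, 196 averaged under 5%, with a median absolute difference between genotypes of 0.166 points, and 35 averaged 5% or more, with a median absolute difference of 4.11 points. The sites at or above 5% sat more often where wild-type coverage changed or at the amplicon's end. Of these, 23 of 35 (65.7%) were outermost sites or had flanking neighbours whose wild-type coverage differed from each other by at least 1.2-fold. The same held for 69 of 196 (35.2%) of the others. This is a description across sites that share libraries, and its part in the levels was not tested.

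**Figure D2:**
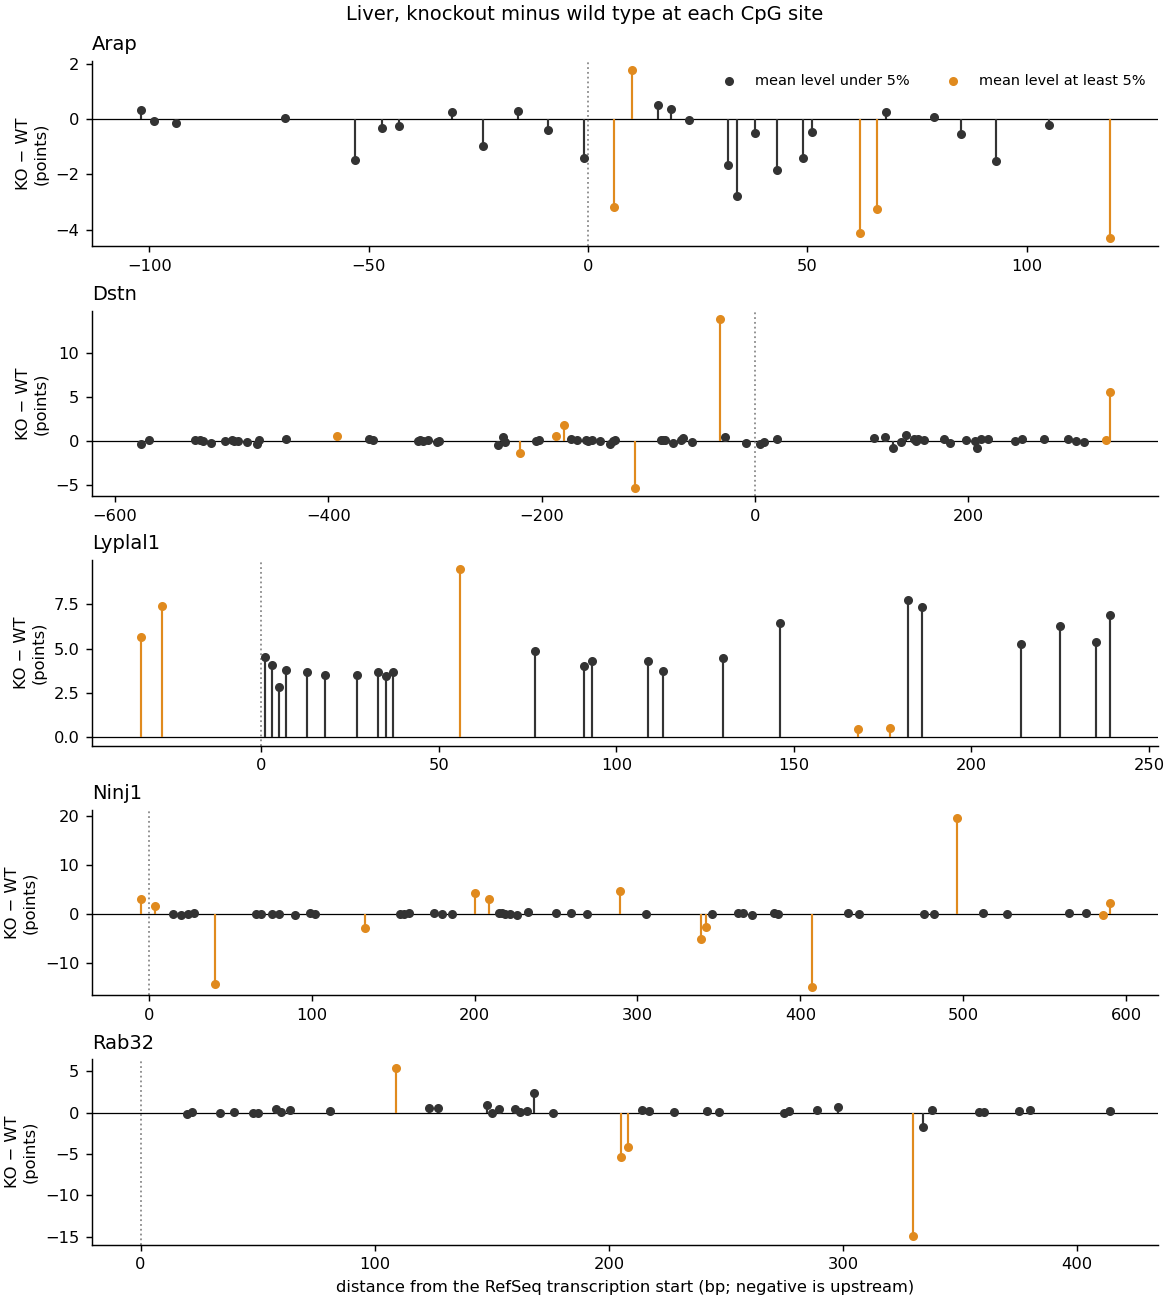
Knockout minus wild type in liver (percentage points, y axis) at each CpG site with at least 100 reads in both libraries, by distance from the RefSeq start site (bp, x axis), with sites averaging at least 5% in orange. Every Lyplal1 site lies above 0, while in the other lines most sites lie near 0 and single sites depart by up to 19.5 points.

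The whole of the Lyplal1 island was more methylated in the knockout liver. All 23 sites that averaged under 5% were higher in the knockout, by 2.84 to 7.73 points with a median of 4.29. Their levels ran from 3.30% to 8.32% in the knockout and from 0.235% to 1.53% in wild type, so the ranges of the genotypes did not overlap. The 5 sites above 5% were also higher in the knockout, by 0.451 to 9.50 points. This line has liver and kidney only, which leaves no spread for a test of single sites. Its knockout liver library was the shallowest of the liver island libraries, with a median coverage of 2474 reads against 23185 in wild type.

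The Lyplal1 site at 187941131 (56 bp) had the largest difference, 36.4% in the knockout and 26.9% in wild type. The site at 187941005 (182 bp), at 8.32% and 0.585%, had the second largest. The smallest differences were at 187941019 (168 bp), with 16.4% and 15.9%, and at 187941010 (177 bp), with 13.7% and 13.2%. Both are methylated in wild type, and they lie between low sites that differed by more than 6 points, so neighbouring CpGs of 1 amplicon carried unlike differences. The 2 upstream sites printed above, at -28 and -34 bp, were methylated in both genotypes, at 75.9% and 68.8% in the knockout and 68.6% and 63.1% in wild type.

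The low Lyplal1 sites farther into the gene differed more than those near the start. The 10 sites from 187940948 to 187941078 averaged 6.44% in the knockout and 0.667% in wild type, a difference of 5.77 points. The 13 sites from 187941094 to 187941186 averaged 4.23% and 0.407%, a difference of 3.83 points. Kidney showed the same order at a higher level, with differences of 10.7 and 7.61 points. Its knockout library was shallow as well, with a median coverage of 2312.5 reads against 29809 in wild type. The part of depth in these differences was not tested. The kidney difference exceeded the liver difference at 23 of 23 sites and was 1.92 times as large on average, and the site differences of the 2 tissues had a Pearson correlation of 0.936 over 23 sites that share 4 libraries. The other measured tissue of this line thus had the larger island difference, 8.71 points against 4.68.

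In Arap the liver departed from every other tissue of the line in both genotypes. The wild-type island was at 3.08% in liver and at 0.532% to 0.633% in brain, heart, kidney and lung. The knockout island was at 2.24% in liver and at 0.759% to 1.31% in the others. The knockout was below wild type in liver and above it in each of the 4 other tissues, where the difference was 0.466 ± 0.251 points (SD, n = 4). The liver wild-type library was also the deepest of the liver island libraries, and its knockout partner had a median coverage of 19206 reads against 241088. The part of depth in the result was not tested. With no coverage minimum the liver difference was -1.94 points.

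The genotype difference of single Arap sites was tested for liver against the other tissues with edgeR's quasi-likelihood test on methylated and unmethylated counts. In it the other tissues supply the spread, and the lone liver library of each genotype is assumed to vary like them. All sites share the same liver libraries, so calls at different sites are not independent of each other. At a Benjamini-Hochberg adjusted p of 0.05, 21 of 31 sites (67.7%) had a lower difference in liver and 0 (0.00%) a higher one. The called sites comprised 8 of 12 sites upstream of the start and 13 of 19 downstream, and the log2 odds ratio in liver minus that of the other tissues ran from -2.25 to -0.92. Over these sites liver averaged 2.63% in the knockout and 4.09% in wild type. Brain averaged 1.22% and 0.548%, heart 1.29% and 0.596%, kidney 0.786% and 0.497%, and lung 0.815% and 0.487%. The liver wild-type library was the highest of the 5 wild-type libraries at 20 of the 21 sites, and the liver knockout was the highest knockout at 14. The test that called these sites used the same liver libraries. These levels and counts therefore describe the called sites and are not separate evidence. The 10 sites that were not called averaged 1.64% in the knockout and 1.26% in wild type in liver.

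The 5 called sites with the lowest p were at 108496644, 108496616, 108496625, 108496675 and 108496631, all downstream of the start, and each had an adjusted p of 0.00299 by edgeR. The site at 108496644 (62 bp) read 4.83% in the knockout and 8.95% in wild-type liver, whereas in the other tissues the knockout was at 0.655% to 1.53% and wild type at 0.306% to 0.447%. Its log2 odds ratio was lower in liver by 2.19. The site at 108496616 (34 bp) read 2.30% and 5.06% in liver, with 0.722% to 1.21% in the other knockouts and 0.389% to 0.579% in the other wild types. In liver the remaining 3 sites read 1.90% and 3.73% (43 bp), 3.10% and 4.61% (93 bp), and 1.63% and 3.04% (49 bp). The last Arap site, at 108496701 (119 bp), had the largest liver difference of the line. It was at 12.3% in the knockout and 16.6% in wild type, and at 0.970% to 2.34% and 0.491% to 0.582% in the other tissues. The largest positive differences were 1.80 points at 108496592 (10 bp), 6.92% against 5.12%, and 0.515 points at 108496598 (16 bp), 2.44% against 1.92%.

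**Figure D3:**
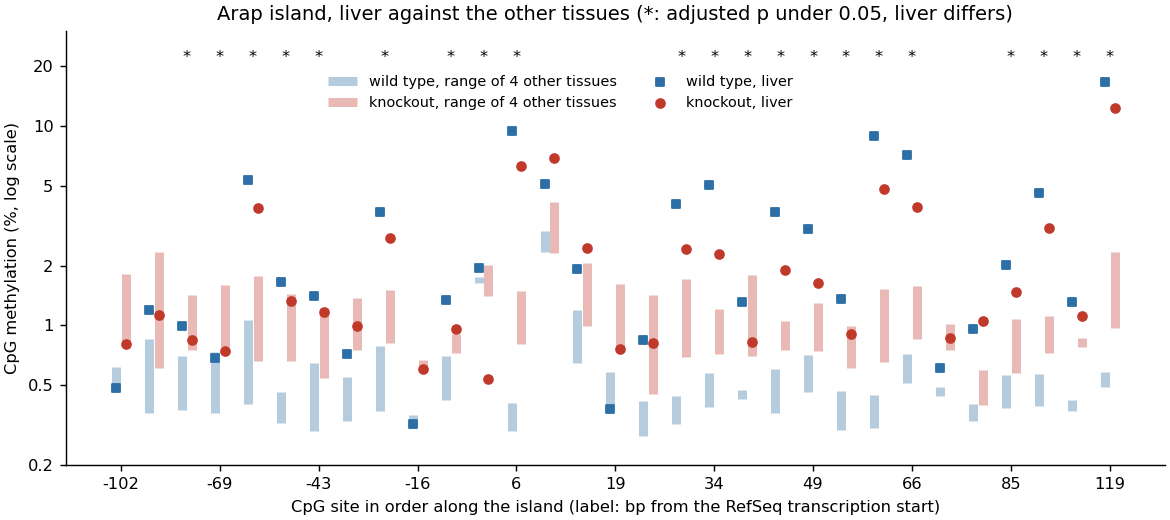
CpG methylation at the 31 Arap island sites (percent, log scale on the y axis) in order along the island, for liver wild type (squares) and liver knockout (circles) and as the range of the 4 other tissues (pale bars). Liver wild type lies above the other wild types at most sites, and asterisks mark the 21 sites whose genotype difference was lower in liver.

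The liver contrast itself, knockout against wild type in liver with the spread taken from the other tissues, called few Arap sites. One site was higher (3.23% of 31) and 1 lower (3.23%) by edgeR. These 2 sites fell outside the rule for named sites and were picked after their values were seen. The lower one, 108496581 (-1 bp), was at 0.539% in the knockout and 1.95% in wild type, with an adjusted p of 0.0493. The higher one, 108496566 (-16 bp), was at 0.605% and 0.319%, also with an adjusted p of 0.0493. At the latter site the other tissues read nearly the same, 0.599% to 0.670% in the knockout and 0.306% to 0.355% in wild type. By limma the lower site was called and the higher was not (adjusted p = 0.123). No site was called when heart or lung was left out, and 5 were called without brain.

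The Dstn island was nearly unmethylated in liver apart from 8 sites. Those 8 ran from 4.22% to 99.8% in the knockout and from 9.55% to 99.7% in wild type. Its 70 low sites had medians of 0.382% in the knockout and 0.348% in wild type, and 43 of them were higher in the knockout and 27 lower, with differences from -0.826 to 0.680 points. In liver 2 Dstn sites were higher by at least 5 points (2.56% of 78) and 1 was lower (1.28%). The largest difference was at 143741033 (-33 bp), 43.2% against 29.3%. In the other tissues of the line this site was at 28.7% to 45.7% in the knockout and at 21.2% to 31.9% in wild type, with the knockout higher in 4 of 5, brain being the exception. At 143741399 (333 bp), the last site, liver read 42.8% and 37.2%, and the knockout was higher in all 5 other tissues. At 143740954 (-112 bp) the knockout was lower, 4.22% against 9.55%, and it was lower in 4 of 5 other tissues. The site at 143740846 (-220 bp), at 33.0% and 34.4%, was also lower in the knockout of all 5 other tissues. By edgeR none of the 78 Dstn sites (0.00%) was called for the liver contrast, with 4 at an unadjusted p under 0.05, nor for a difference between liver and the other tissues, with 3. By limma there were likewise 0 calls, with 3 at an unadjusted p under 0.05 for each.

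Most of the Ninj1 island was also nearly unmethylated, with 13 sites above 5% among 54 with at least 100 reads. Those 13 ran from 0.334% to 99.5% in the knockout and from 12.1% to 99.7% in wild type. The 41 low sites had medians of 0.413% in the knockout and 0.334% in wild type, with 31 higher and 10 lower in the knockout, the differences running from -0.150 to 0.319 points. In liver 1 Ninj1 site was higher by at least 5 points (1.85% of 54) and 3 were lower (5.56%). The largest difference at a deeply covered site was at 49283393 (496 bp), with 31.6% in the knockout and 12.1% in wild type. The other tissues read 16.4% to 31.9% and 9.43% to 12.2%, and the knockout was higher in all 5. At 49283304 (407 bp) the knockout was lower, 11.3% against 26.1%, as in all 5 other tissues. The remaining 2 sites named by size had few reads. Site 49283571 was at 15.4% of 26 reads in the knockout and 0% of 49 reads in wild type, for which 95% Wilson intervals were 6.15% to 33.5% and 0% to 7.27%. Site 49283647 was at 53.8% of 13 reads and 72.0% of 25 reads.

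One Ninj1 site, 1.82% of the 55 tested, was lower in the knockout liver by edgeR, and 0 (0.00%) were higher. That site, 49282938 (41 bp), fell outside the rule for named sites. It read 0.334% of 17088 reads in the knockout and 14.6% of 15704 reads in wild type, with a log2 odds ratio of -5.67 and an adjusted p of 0.000247. The other 5 tissues gave 0.212% to 0.487% in the knockout and 14.8% to 17.3% in wild type, so the genotypes did not overlap over the 6 tissues. The difference between liver and the other tissues had an adjusted p of 0.9999 at this site by edgeR. No Ninj1 site was called for that difference by edgeR, with 0 at an unadjusted p under 0.05, or by limma, with 1.

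The Rab32 island was low in liver, with 36 of 40 sites averaging under 5%. Of these 31 were higher in the knockout and 5 lower, with medians of 0.516% and 0.360%. In all, 1 Rab32 site was higher by at least 5 points (2.50% of 40) and 2 were lower (5%). The most negative difference was at 10277673 (330 bp), with 4.97% in the knockout and 19.9% in wild type. Spleen, the other tissue of this line, read 8.24% and 23.0% there. The site at 10277798 (205 bp) read 16.6% and 22.0% in liver, and the knockout was lower in spleen too. The sites at 10277894 (109 bp), with 19.8% and 14.4%, and 10277835 (168 bp), with 3.01% and 0.616%, were higher in the knockout of both tissues. With a single other tissue no site test was made.

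Set against the other tissues of each line, the liver island difference differed by -1.004 ± 1.80 points (SD over 5 lines, two-sided exact sign-flip permutation p = 0.312). Liver minus the mean of the other tissues was -4.03 points in Lyplal1, -1.30 in Arap, -0.0215 in Dstn, -0.0149 in Rab32 and 0.348 in Ninj1. Without Lyplal1 the mean was -0.247 points. When sites averaging at least 5% over the liver knockout and wild-type libraries were left out, all 5 lines were below their other tissues. That cut used liver values alone, so it is not independent of the liver differences compared. The mean was then -1.12 points, with an exact sign-flip p of 0.0625. The same p came from sites with at least 100 reads (-1.11 points), from pooled reads (-1.30 points) and from the sites that all libraries of a line cover (-1.11 points). Other settings gave a higher sign-flip p. It was 0.1875 with no coverage minimum (-0.861 points), 0.1875 for the median over sites (-1.06 points) and 0.3125 on log2 odds. Those odds came from the mean methylated and unmethylated percent, each with 0.5 points added, which is close to the lowest island levels.

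The LacZ reporter had a higher mean level than the promoter island in all 5 knockout livers, and the lines differed widely. Over 141 sites covered in all LacZ libraries of the series, from base 150 to 2896 of the reporter reference, Arap liver averaged 68.6%, Dstn 49.5%, Ninj1 45.2%, Lyplal1 39.3% and Rab32 10.9%. The mean was 42.7% ± 20.9 (SD, n = 5). Of these sites 14 hardly varied over the 24 LacZ libraries (SD under 7 points). They averaged 50.2% to 54.1% in each liver library, Rab32 included. Except for bases 424, 462 and 481, each was the first or last site of a segment of covered sites, or its neighbour. Segments are separated by more than 100 bp without sites. Base 1823 also opens a segment but was not among the 14. Base 722, which closes the first segment, ran from 75.5% in Rab32 to 80.6% in Arap liver. The part of placement in these levels was not tested. Over the other 127 sites the levels were 70.4% in Arap, 49.0% in Dstn, 44.5% in Ninj1, 37.8% in Lyplal1 and 6.56% in Rab32. Leaving the 14 sites out thus changed the Rab32 level by the largest ratio. Lyplal1, with the largest island difference, had a lower LacZ level than all lines but Rab32, and Arap, with the most negative island difference, had the highest. With 5 lines no correlation was computed.

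Liver did not stand on 1 side of the other tissues for LacZ. Arap liver at 68.6% exceeded the 4 other Arap tissues, which ran from 17.6% to 37.0%. Ninj1 liver at 45.2% lay within the range of its 5 other tissues, 25.8% to 54.2%. Dstn liver at 49.5% lay below 4 of the 5 others, between lung at 35.6% and kidney at 68.8%. Lyplal1 liver was 19.0 points below kidney at 58.3%, and Rab32 liver 15.9 points below spleen at 26.8%. The mean over lines was -0.739 ± 24.6 points (two-sided exact sign-flip permutation p = 1), and -10.8 points without Arap.

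**Figure D4:**
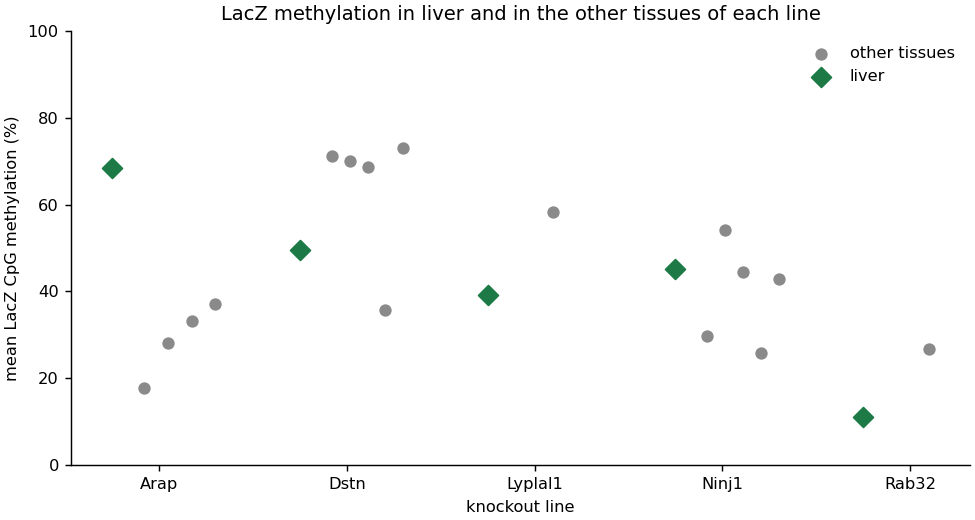
Mean LacZ methylation over 141 CpG sites (percent, y axis) for each knockout line (x axis), with liver as a diamond and each other tissue as a circle, 1 library per point. Arap liver at 68.6% lies above the other Arap tissues, whereas liver lies below the single other tissue of Lyplal1 and Rab32.

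Single LacZ sites were tested for liver against the other tissues by edgeR, with the lone liver library assumed to vary like the others. In Arap 82 of 176 sites (46.6%) were higher in liver and 0 (0.00%) lower. The count fell to 0 when heart or kidney was left out and rose to 133 without brain and 112 without lung, and limma called 99. In Dstn 0 of 165 sites (0.00%) were called, with 7 at an unadjusted p under 0.05 and 0 by limma. Without Dstn lung, the low library of that line, 2 sites were higher and 94 lower in liver. In Ninj1 0 of 164 sites (0.00%) were called, with 4 at an unadjusted p under 0.05 and 0 by limma.

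Along the reporter the livers differed in where the varying sites were high or low. The covered sites fall into 5 segments separated by more than 100 bp without sites, and the segment levels that follow are means over the varying sites alone. Arap ran high at both ends, 80.9% over bases 150 to 722 and 77.4% over 2629 to 2896, with 57.4% to 63.8% in between. Dstn had a single block near full methylation, 92.8% over bases 1823 to 2068, between 43.8% before it and 34.6% after it, and 17.9% in the last segment. The other Dstn tissues ran from 32.1% to 98.1% in that block and from 15.1% to 20.1% in the last segment. Within that block the 21 varying Dstn sites ran only from 86.9% to 95.5%. Ninj1 had 40.2% in the first segment and 60.2% in the last, with 29.2% over bases 1823 to 2068. Lyplal1 stayed between 28.7% and 42.4%, and Rab32 between 3.56% and 9.57%.

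The 59 sites up to base 1030 exceeded the 58 sites from base 1992 on, the outer parts of the span, in 4 of 5 livers, by 3.14 points in Rab32, 7.23 in Lyplal1, 9.90 in Arap and 10.4 in Dstn. In Ninj1 the order was the opposite, -9.12 points. The mean difference was 4.32 ± 8.04 points (two-sided exact sign-flip permutation p = 0.250).

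Sites within 1 liver were spread widely. Over the varying sites the SD between sites was 25.4 points in Dstn, 20.4 in Arap, 16.9 in Ninj1, 7.63 in Lyplal1 and 4.12 in Rab32. In Arap the highest sites were at bases 647 (97.3%) and 249 (97.3%), and the lowest at 2360 (15.3%) and 511 (22.8%). In Ninj1, base 956 was highest (83.2%), followed by 2317 (81.7%), and base 511 was lowest (7.65%), followed by 1843 (14.1%). In Dstn the highest were 2043 (95.5%) and 1831 (95.4%) and the lowest 2656 (9.69%) and 2794 (10.7%). In Rab32 the lowest were 2656 (1.07%) and 2291 (1.15%), and in Lyplal1 they were 2308 (24.2%) and 2360 (24.5%). The highest sites of the last pair of lines, 722 and 424, were among the near-constant ones, at 75.5% and 70.7% in Rab32 and 78.4% and 78.7% in Lyplal1.

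Some positions were thus low or high in several livers. Over the 127 varying sites, which share their sequence and primers between lines, the Pearson correlation of liver profiles was 0.699 for Arap and Rab32, 0.677 for Arap and Ninj1, 0.498 for Lyplal1 and Rab32, and 0.467 for Arap and Lyplal1. The Dstn profile had correlations of 0.339 with Lyplal1, 0.113 with Arap, 0.0956 with Rab32 and -0.240 with Ninj1. The remaining pairs were Ninj1 and Rab32 at 0.365 and Lyplal1 and Ninj1 at 0.282.

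**Figure D5:**
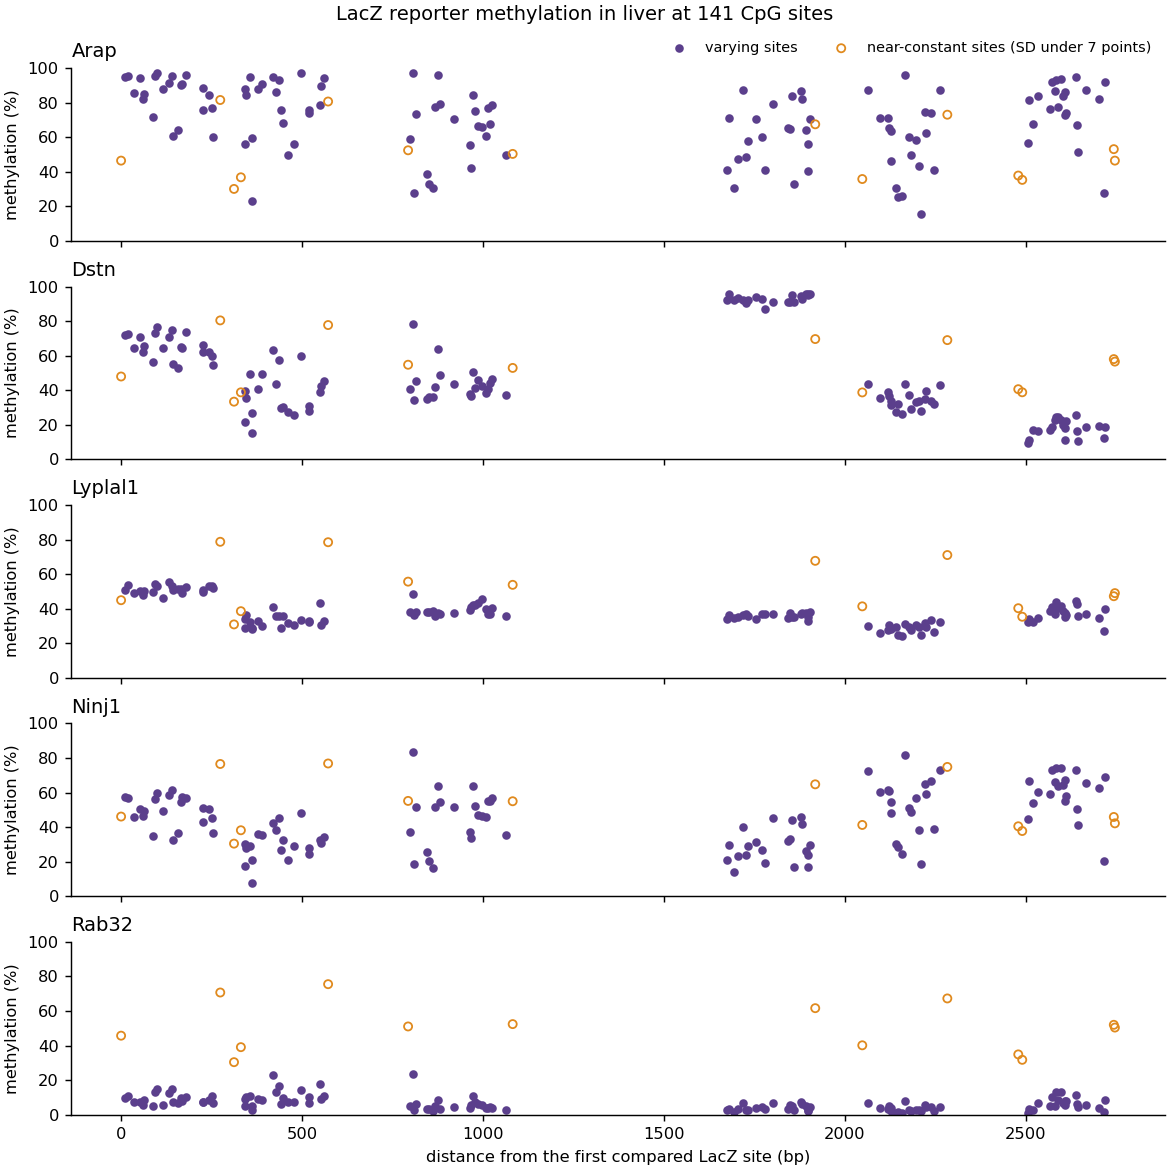
LacZ methylation in liver (percent, y axis) at 141 CpG sites by distance from the first compared site (bp, x axis), 1 panel per line, with the 14 near-constant sites as open circles. The near-constant sites average 50.2% to 54.1% in each panel, and the Dstn panel has 1 block near 92.8% flanked by lower segments.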

How the data were processed

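Bisulfite amplicons of promoter CpG islands (knockout and wild type) and of LacZ (knockout) were sequenced. The submitters' processing notes name Bowtie2, Bismark and the mm9 build, with no versions. Per the series design text, island and LacZ reads were aligned separately and gel-isolated amplicons were pooled. Each deposited file lists CpG positions with a percent and, beside it, counts of methylated and of unmethylated calls, all without normalization. In all 72 deposited files that percent matched the counts. Whether duplicates were removed is not given in the sources used here, and PCR that favours 1 kind of strand would shift the levels.

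Titles gave each library's line, tissue, amplicon and genotype, and spellings of 1 line were merged. Island sites within 2000 bp of the line's median position were used. In liver 33 file rows elsewhere, at most 0.00323% of a library's calls, were left out. Sites needed at least 10 reads. LacZ levels used the 141 sites covered in all 24 LacZ libraries. Non-CpG cytosines were not used here, so incomplete conversion was not measured.

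Differences over lines were tested by exact permutation of their signs, two-sided. Site counts were tested with edgeR 4.0.16 (quasi-likelihood, terms for library, tissue, genotype and genotype in liver) in R 4.3.3, with Benjamini-Hochberg adjustment over all sites of the line and a threshold of 0.05. The alternative was limma 3.58.1 on log2 odds with an offset of 0.5 reads. Lyplal1 and Rab32 have 2 tissues each, which leaves no residual degrees of freedom for a site test. Python 3.11.15, numpy 2.4.6, pandas 2.3.3 and scipy 1.17.1 did the rest. Promoter sequences are RefSeq's (GRCm38.p6). Sites were placed on them by spacing alone, which gave 1 complete placement per gene, with each file position taken as the C of a CpG.

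Named sites were the 2 largest and the 2 smallest liver differences of each island, the 2 highest and 2 lowest LacZ sites, and up to 5 sites per line called in the test of liver against the other tissues. The members, rules and lists were chosen with earlier results of these data known.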

Additional observations from a re-analysis of the deposited data

Results flagged for a closer look

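Of 17 groups of values that were checked for a value far from the others, 3 had one, and chance alone gives about 5% of such groups. The Lyplal1 liver difference of 4.68 points lay far above those of the other 4 lines, and so did its difference of 4.67 points over sites averaging under 5%. Both Lyplal1 values come from the same libraries, so the groups are not independent and the 5% is only a rough guide. The Arap liver wild-type island at 3.08% lay far above the 4 other Arap wild-type tissues. At 21 Arap sites the genotype difference in liver departed from that of the other tissues by the edgeR test given above. The causes were not tested.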

How the results depend on the processing

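Over lines, the liver island difference of 0.897 points ranged from -0.0476 to 1.33 points when a line was left out, and turned negative without Lyplal1. Its difference from the other tissues ranged from -1.34 to -0.247 points, and LacZ in liver minus the other tissues from -10.8 to 3.82 points, being positive without Dstn, Lyplal1 or Rab32. LacZ in the first minus that in the last part of the span ranged from 2.79 to 7.67 points. Without pairing by line (no replicate block) the island difference was the same 0.897 points, with an exact permutation p of 0.722. In Ninj1 it was -0.521 points with no coverage minimum and -0.927 points over pooled reads. In Rab32 it was 0.178 points as a median over sites and 0.203 points without sites averaging at least 5%. Sites called in the Arap liver contrast numbered 2, against 1 by limma, 0 with no coverage minimum and 0 to 5 when a tissue was left out. Leaving out a tissue gave 17 to 21 Arap sites that differed between liver and the other tissues, 0 to 133 Arap LacZ sites, and 0 to 96 Dstn LacZ sites. The other 108 recomputed values that answer a comparison were not marked as changed. For differences over lines, sign-flip tests could show a change of direction only, since their p cannot fall under 0.05 with 5 lines. Counts of sites past a size have no p. Those higher by at least 5 points went from 19 to 14 when 100 reads were required, which was not marked as a change.

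Lines are the only replicates in liver, and the lowest p that an exact sign-flip test over 5 lines allows is 0.0625. Requiring 100 reads changed the liver island difference most in Ninj1, from 0.681 to 0.0317 points. With no coverage minimum the Arap difference moved too, from -0.836 to -1.94 points. The part of unequal depth between genotypes in Arap and Lyplal1 was not tested. Over all libraries of a line, positions outside the set with at least 100 reads numbered 16 in the Ninj1 promoter window, of which 12 lie on a CpG of the RefSeq sequence, and 9 each in Arap and Dstn, of which none does.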
